A study of Mus musculus with 51 samples.

Results

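The genes described here are 37 members of the pluripotency network of the mouse, taken by name from the 5 RNA tables, which list 37483 genes in all, and from 4 tables of chromatin peaks as regions within 2 kb of each gene's start. All 37 were listed in the mESC table, 35 at 18h, 33 at 20h, 34 at 22h and 24 at 24h, and 23 were listed in each of the 5 tables. The samples are C57BL/6 mouse embryos that were LoNA KO or control at 18h, 20h, 22h and 24h, and LoNA KD or control 2C-like mESC, embryonic stem cells in a state named for the two-cell stage. Chromatin of 24h embryos was profiled for H3K27me3 and H3K4me3 in LoNA KO and control embryos. AcNPM1 (acetylated nucleophosmin) was profiled in LoNA KO embryos with p300 inhibitor, in LoNA KO embryos and in control embryos. LoNA is a long noncoding RNA of the nucleolus, and the series asks how a disturbed nucleolus acts on early embryonic transcription. The labels do not say how LoNA was deleted or depleted, how the 2C-like state was obtained, from which event the hours are counted, or how many embryos went into a sample. The tables list no LoNA row, and the loss of LoNA was therefore not checked.

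The pluripotency network keeps cells of the inner cell mass and embryonic stem cells able to form every tissue. Its core factors, encoded by Pou5f1 (OCT4), Sox2 and Nanog, bind together near their own genes and near those of other members. Naive factors include Esrrb, Tfcp2l1 and the Klf genes. Of these, Tfcp2l1 and Klf4 act downstream of LIF signalling through the LIF receptor and STAT3. FGF4, acting through ERK, moves cells toward differentiation. In the fertilised egg and early two-cell embryo most of this network is not yet transcribed, and part of its RNA comes from the oocyte.

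Promoter windows of 4 members are shown because they stand at the ends of what follows: Pou5f1 and Nanog are core genes, Tfcp2l1 had the deepest fall in mESC, and Lin28a stayed level there. Each runs from 250 bases before to 50 bases after a RefSeq start on GRCm38.p6 (mm10). Capitals mark exact matches, on either strand, to ATGCAAA (the core of the octamer bound by OCT4), CATTGT (a motif of SOX factors), TTCNNNGAA (a STAT motif) or CACGTG (the E-box bound by MYC). The windows lie at chr17:35505782-35506081 on the plus strand for Pou5f1, chr6:122707239-122707538 on the plus strand for Nanog, chr1:118627695-118627994 on the plus strand for Tfcp2l1 and chr4:134018767-134019066 on the minus strand for Lin28a.
Pou5f1: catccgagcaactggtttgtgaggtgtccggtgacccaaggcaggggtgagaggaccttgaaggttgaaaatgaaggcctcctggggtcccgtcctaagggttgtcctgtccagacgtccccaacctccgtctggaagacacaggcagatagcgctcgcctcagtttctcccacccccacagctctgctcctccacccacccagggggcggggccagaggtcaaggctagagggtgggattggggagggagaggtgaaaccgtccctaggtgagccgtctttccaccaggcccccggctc
Nanog: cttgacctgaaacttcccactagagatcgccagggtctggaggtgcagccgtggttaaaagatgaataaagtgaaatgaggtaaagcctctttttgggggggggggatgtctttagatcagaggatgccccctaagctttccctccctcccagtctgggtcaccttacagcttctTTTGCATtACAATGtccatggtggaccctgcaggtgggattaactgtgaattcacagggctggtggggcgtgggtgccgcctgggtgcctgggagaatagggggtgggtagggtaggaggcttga
Tfcp2l1: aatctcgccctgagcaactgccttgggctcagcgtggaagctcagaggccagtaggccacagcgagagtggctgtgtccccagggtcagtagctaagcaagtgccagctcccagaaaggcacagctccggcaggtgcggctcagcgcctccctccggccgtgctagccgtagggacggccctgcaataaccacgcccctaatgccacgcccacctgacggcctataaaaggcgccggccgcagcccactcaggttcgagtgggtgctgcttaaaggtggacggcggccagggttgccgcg
Lin28a: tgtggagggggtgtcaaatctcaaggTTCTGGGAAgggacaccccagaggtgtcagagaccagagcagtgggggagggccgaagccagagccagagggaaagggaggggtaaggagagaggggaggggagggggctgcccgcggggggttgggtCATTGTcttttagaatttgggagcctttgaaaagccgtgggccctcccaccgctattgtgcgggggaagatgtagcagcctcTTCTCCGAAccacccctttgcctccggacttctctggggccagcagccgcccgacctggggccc
The Nanog window held 1 octamer core directly followed, after 1 base, by 1 SOX motif. The Lin28a window held 1 SOX and 2 STAT motifs, and the windows of Pou5f1 and Tfcp2l1 held none of the 4. RefSeq windows were matched for 26 of the 37 members. The RefSeq starts of Fgf4 and Lin28b lie 14019 and 16194 bases from the starts used for the chromatin regions. Of those 26, 11.5% held the octamer core, 11.5% the SOX motif, 11.5% the STAT motif and 11.5% the E-box, which is 3 windows in each case. Among all 32851 windows in the table the shares were 4.6%, 12.6%, 8.3% and 7.2%. The members' windows had a median GC content of 59.7% and 14 CpG dinucleotides, against 52.7% and 7 over all windows. Matches are letters only and say nothing of binding.

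At 18h, 20h and 22h there were 3 libraries per group, with 12077497 to 18286944 counts each. At 24h the 4 columns of a group formed pairs that correlated at 0.995 to 0.998 and were summed, which left 2 libraries per group of 13066794 to 16922914 counts. Those libraries were patchy: 7877 to 10167 genes had a count, against 17125 to 22370 at the earlier times. The mESC groups had 2 columns each, with 16906302 to 17674190 counts, and the columns of a group correlated at 0.998. The labelled tissues were checked against markers. All 8 oocyte and maternal markers were listed in each embryo table, and their summed level was 3726 to 11612 CPM over the embryo libraries, where CPM is the count scaled to library size with TMM factors. A list of 9 markers of the two-cell embryo, such as the Zscan4 genes, summed to 245 to 1315 CPM in the embryo libraries, but only to 3.32 to 3.40 CPM in LoNA KD mESC and 7.63 to 8.09 CPM in control mESC. The 2C-like state of the mESC is therefore taken from the labels and was not borne out by this list. In bulk RNA, fewer cells of a type and less RNA per cell cannot be told apart.

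**Figure D1:**
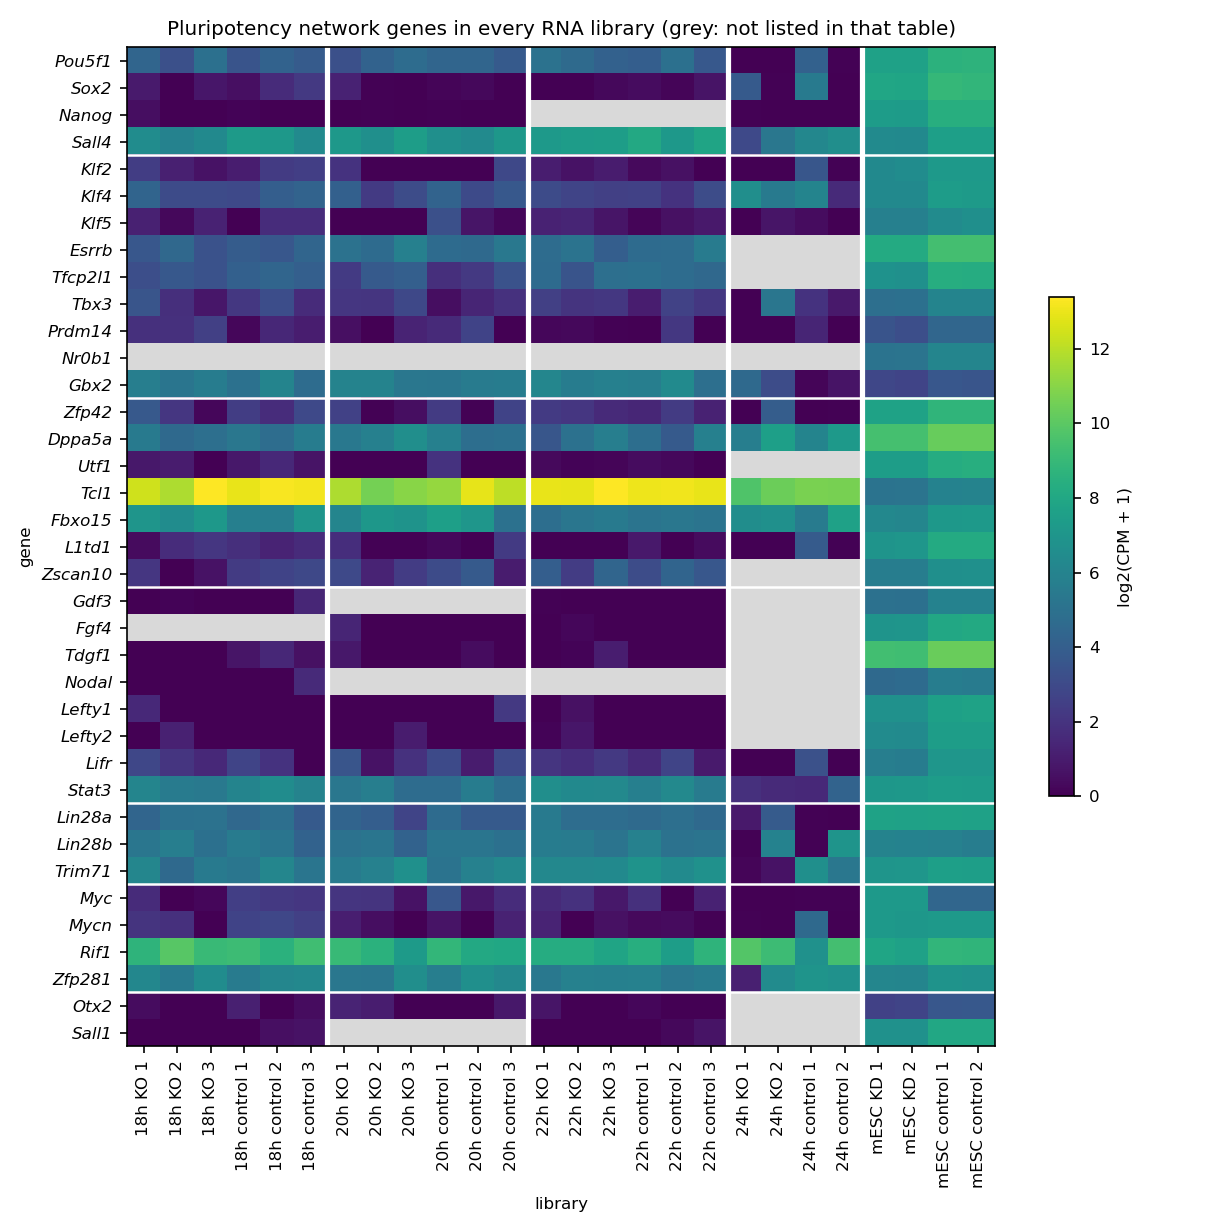
Level of each of the 37 genes (rows, grouped by role) in each of the 26 RNA libraries (columns), as log2(CPM + 1), with each time scaled on its own. LoNA KO or KD libraries stand left of their controls, and grey marks a gene not listed in that table. Tcl1, Rif1 and Sall4 are high in embryos, while most other members are high only in mESC.

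In 2C-like mESC nearly the whole network was lower after LoNA KD. Of 37 members tested, 33 fell, 2 rose and 2 did not pass (edgeR quasi-likelihood test, adjusted p under 0.05). The background was wide, since 35.3% of the 16406 genes tested were called lower and 38.9% higher. The members' changes were of a common size, with a median log2 change of -0.997 and a middle 50% between -1.13 and -0.83. All genes tested had a median of 0.01 and a middle 50% between -0.61 and 0.58. A common size was not particular to the members: 8 feeder fibroblast markers had a median of -1.20 and a middle 50% between -1.24 and -1.10. At a log2 change of at least 1, 18 members were lower and 1 higher, against 13.7% and 15.2% of all genes. The mESC columns of a group were so alike, with a coefficient of variation of 3.39%, that these p-values may measure technical spread only.

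The core factors fell together, 4 of 4. Pou5f1, which encodes the POU factor OCT4, measured 205.2 and 204.0 CPM in LoNA KD columns, against 386.4 and 410.4 CPM in control columns, a log2 change of -0.96 ± 0.04 (SE). Sox2, the partner of OCT4 on DNA, measured 247.3 and 231.5 CPM in KD, against 476.6 and 458.7 CPM in control. Nanog, which stabilises the self-renewing state, measured 168.2 and 162.5 CPM in KD, against 331.2 and 336.1 CPM in control. These 3 genes ended at 0.514, 0.512 and 0.496 of their control means, a near-equal loss. Sall4, a zinc finger factor that acts with OCT4, measured 83.9 and 80.1 CPM in KD, against 186.7 CPM in each control column, with a log2 change of -1.19 ± 0.05.

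All 9 naive factors fell, with log2 changes between -1.54 and -0.75. Tfcp2l1, a transcription factor downstream of LIF and STAT3, had the largest fall of any member, with 113.4 and 103.1 CPM in KD, against 319.7 and 308.5 CPM in control (log2 change -1.54 ± 0.05, adjusted p 1.26e-17). Esrrb, an orphan nuclear receptor, measured 294.9 and 296.3 CPM in KD, against 683.6 and 680.2 CPM in control. The least-changed naive factors were Klf5, at 56.0 and 56.9 CPM in KD against 88.3 and 100.9 CPM in control, and Klf2, at 80.3 and 90.4 CPM in KD against 145.4 and 152.2 CPM in control. Prdm14, a repressor of FGF signalling and of DNA methylation, measured 10.03 and 8.22 CPM in KD, against 20.8 and 20.3 CPM in control. Tbx3, a T-box factor, measured 28.8 and 29.3 CPM in KD, against 65.4 and 64.0 CPM in control. In each of these genes both KD columns lay below both control columns.

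The 7 markers and targets, which include Zfp42 (REX1), Dppa5a, Utf1, Tcl1, Fbxo15 and Zscan10, also all fell, with log2 changes between -1.18 and -0.83. L1td1, an RNA-binding protein derived from a LINE-1 element, had the largest, with 122.4 and 132.5 CPM in KD, against 289.5 and 289.2 CPM in control. All 8 signalling genes were lower, and here the sizes differed more. Lifr, the LIF receptor, fell by 1.40 ± 0.05 on the log2 scale, with 52.1 and 48.2 CPM in KD, against 132.6 and 131.8 CPM in control. Stat3, the transducer that carries the LIF signal to the nucleus, measured 137.0 and 138.3 CPM in KD, against 168.3 and 164.8 CPM in control, a log2 change of -0.28 ± 0.04. The ligand Fgf4 measured 121.3 and 123.6 CPM in KD, against 265.0 and 276.0 CPM in control. Nodal, its antagonists Lefty1 and Lefty2, its co-receptor Tdgf1 and the related ligand Gdf3 had log2 changes between -1.02 and -0.90, so ligand, co-receptor and antagonists kept nearly the same proportions. Lefty1 and Lefty2 are near-identical copies, and how reads shared by them were counted is not given in the sources used here.

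The 4 members that did not fall were Myc and Lin28b, which rose, and Mycn and Lin28a, which did not pass. Myc, a driver of growth and self-renewal, rose to 143.4 and 149.0 CPM in KD, against 20.1 and 20.2 CPM in control, a log2 change of 2.86 ± 0.06 (adjusted p 1.77e-20). Mycn, its close relative, measured 145.9 and 136.5 CPM in KD, against 150.8 and 147.4 CPM in control (adjusted p 0.124). Lin28a, which blocks maturation of let-7 microRNAs, measured 211.7 and 205.1 CPM in KD, against 207.3 and 202.3 CPM in control (adjusted p 0.589). Lin28b, which acts on the same microRNAs, measured 62.7 and 60.1 CPM in KD, against 58.1 and 50.9 CPM in control, and its call (log2 change 0.17, adjusted p 0.0247) was lost with DESeq2, where the adjusted p was 0.134. Trim71, an RNA-binding ubiquitin ligase that is itself a let-7 target, fell by 0.53 ± 0.04. Rif1, a replication timing factor, fell by 1.03 and Zfp281, a zinc finger repressor, by 0.71. Otx2 and Sall1, which were grouped by role under the name exit factors, were lower too. Sall1 measured 109.3 and 107.4 CPM in KD, against 264.1 and 264.3 CPM in control. A role of Sall1 in exit from pluripotency was not tested, so its fall does not show that exit genes fell. Otx2, a homeobox factor of the primed state, measured 5.01 and 5.72 CPM in KD, against 11.5 and 11.99 CPM in control.

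**Figure D2:**
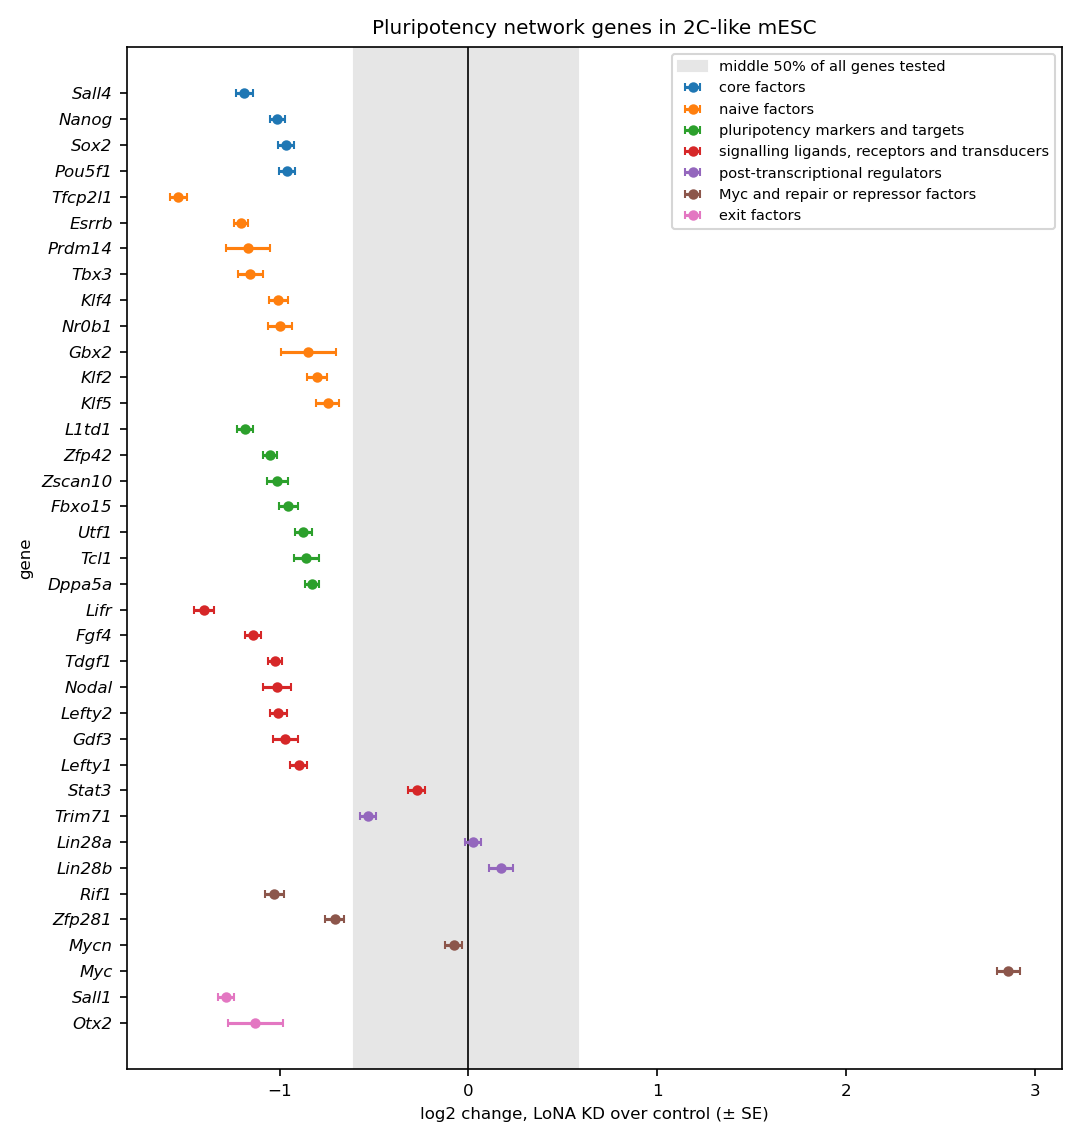
Log2 change of each gene in LoNA KD over control 2C-like mESC (points, with SE as bars, coloured by role), with the middle 50% of all genes tested shaded from -0.61 to 0.58. Most members lie between -1.54 and -0.71, left of the shaded band, while Stat3, Trim71, Lin28a, Lin28b and Mycn lie inside it and Myc lies at 2.86.

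Counts in neighbouring lists are to be read against the same background, in which 35.3% of all genes were called lower and 38.9% higher, and nothing particular to a list was tested. Among 15 other naive and early embryo factors 13 fell and none rose, led by Klf17 (log2 change -2.41, at under 1 CPM in each column) and Tet1, which oxidises methylated cytosine (-1.66). Of 9 LIF and STAT3 signalling genes 6 fell and 3 rose, with Socs3, the feedback inhibitor of STAT3, at -1.10 and Lif at -0.90, and with Ptpn11 at 0.37 and the kinase gene Jak2 at 0.33. Of 13 FGF and ERK genes 7 fell and 6 rose, with the receptors Fgfr2 and Fgfr4 at -1.34 and -1.05, and with the ERK phosphatase gene Dusp6 at 2.04 and the ETS factor gene Etv4 at 0.40. Nodal and activin genes split 6 lower and 5 higher of 11, with the receptor gene Acvr2b at -1.23, and with the convertase genes Furin at 0.83 and Pcsk6 at 0.62. BMP and WNT genes split 3 lower and 6 higher of 12, with Bmp4 at -1.14 and Tcf7l1 at -0.87, and with the BMP targets Id3 and Id1 at 1.45 and 1.31. Formative and primed markers split 6 lower and 2 higher of 10, with Eomes at -1.54 and Dnmt3b at -1.08, and with Sall2 at 1.35 and Sox11 at 0.92. The median log2 change was -0.88 for the other naive factors, -0.47 for LIF, -0.12 for FGF, -0.25 for Nodal, 0.37 for BMP and WNT and -0.96 for formative and primed markers.

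Markers of other cell types moved in the same columns. All 8 markers of sympathetic neurons and chromaffin cells rose, and their summed level was 1890 to 2009 CPM in KD and 46.5 to 46.8 CPM in control. Chgb, a granin of secretory granules, averaged 523.6 CPM in KD and 0.143 CPM in control. Feeder fibroblast markers, 7 of 8 of which fell, summed to 231 to 232 CPM in KD and 544 to 565 CPM in control, with a median log2 change of -1.20, close in size to that of the pluripotency genes. Of 5 primitive endoderm markers tested, 3 fell and 1 rose, and their sum was 67.0 to 68.9 CPM in KD and 24.8 to 25.8 CPM in control. The part of these cell types in the lower pluripotency genes was not tested.

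In embryos the network was represented by few genes. The 8 with the highest mean over control embryos of 18h, 20h and 22h were Tcl1, Rif1, Sall4, Fbxo15, Trim71, Zfp281, Stat3 and Gbx2. Tcl1, which encodes a coactivator of the AKT kinase stored in the oocyte, averaged 7419 CPM over these 9 libraries, against 390.6 CPM for Rif1, 146.8 CPM for Sall4 and 46.3 CPM for Gbx2 (levels per library, not per transcript length). Of the core genes, Pou5f1, Sox2 and Nanog were far lower. In control embryos Pou5f1 measured 10.2 to 17.6 CPM at 18h, 12.9 to 19.9 CPM at 20h and 12.1 to 30.1 CPM at 22h. At these times Sox2 stayed at or below 3.72 CPM in each control library, and Nanog never passed 0.0789 CPM where it was listed. Tcl1 alone thus outweighed the other members together in these libraries.

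Control mESC were set beside control 22h embryos to compare the members' levels in the 2 systems. Of 34 members tested, 25 were higher in mESC, 2 were lower and 7 did not pass, against 34.3% of 17137 genes higher and 30.7% lower. The median of all genes was itself shifted by 0.40 on the log2 scale. Over all genes 11135 were called, and 6811 or 6842 without mESC column 1 or 2. Tdgf1, Fgf4, Lefty1, Lefty2 and Gdf3 had no counts in the 3 embryo libraries, and against a floor of 3 counts over that group they were at least 14042-fold, 2935-fold, 2196-fold, 1894-fold and 653-fold higher in mESC. Sox2 measured 397.0 and 386.6 CPM in mESC, against 0.490, 0.151 and 0.821 CPM in embryos. Tcl1 went the other way, with 51.0 and 52.6 CPM in mESC, against 10928, 11447 and 10238 CPM in embryos, and so did Gbx2, a homeobox factor, with 9.42 and 8.80 CPM in mESC, against 65.2, 108.1 and 37.3 CPM in embryos. The genes that did not pass were Zfp281, Sall4, Myc, Prdm14, Trim71, Lin28b and Rif1, and of these Myc and Prdm14 had no count in 1 or more embryo libraries. Not passing does not show equal levels. Zfp281 passed by edgeR with RLE factors or without a filter (adjusted p 0.039 and 0.0491). By DESeq2 Zfp281 and Myc passed (adjusted p 0.0144 and 0.042). Without Control 22h library 2, edgeR called Zfp281, Myc and Prdm14 higher and Sall4 lower (adjusted p 0.0473, 0.00849, 0.00294 and 0.00746). Stat3 was among the genes called higher (adjusted p 0.0295), but not without either mESC column or without Control 22h library 1 or 3, with an adjusted p of 0.0552 to 0.119. The 2 systems stand in separate tables, so system and table cannot be told apart.

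Across time in control embryos, Tfcp2l1 and Fbxo15 changed between 20h and 22h. On a scale common to the 3 times, Tfcp2l1 measured 16.5, 19.8 and 15.7 CPM at 18h, 2.60, 3.57 and 9.27 CPM at 20h, and 29.1, 24.98 and 20.8 CPM at 22h. Its log2 change was 2.28 ± 0.57 (SE) for 22h over 20h (adjusted p 0.0327) and -1.75 ± 0.56 for 20h over 18h (adjusted p 0.13), so the dip at 20h was called on its later side by edgeR. Fbxo15, an F-box gene used as a marker of the pluripotent state, measured 55.03, 54.3 and 126.1 CPM at 18h, 193.6, 126.6 and 30.9 CPM at 20h and 33.6, 37.3 and 33.6 CPM at 22h, with a log2 change of -1.75 ± 0.47 for 22h over 20h (adjusted p 0.0481). One 20h library lay at the 22h level and the other two far above it. These were 1 member higher and 1 lower of 30 tested, where 1.55% of 18992 genes were called higher and 1.39% lower. Neither call held without Control 20h library 1 or 2 or without any one of the 3 Control 22h libraries, and Fbxo15 also missed the threshold without any of 7 other libraries (adjusted p 0.0501 to 0.0625). For 20h over 18h and for 22h over 18h edgeR called 0 of 30 members against 0.753% and 1.58% of all genes, and 4 and 7 had an unadjusted p under 0.05, against 14.9% and 13.2%. The counts over all genes also moved with single libraries. The 143 calls for 20h over 18h ran from 0, without Control 18h library 3, to 298, without KO 18h library 3. The 558 calls for 22h over 20h ran from 36, without Control 22h library 1, to 635, and the 300 for 22h over 18h from 0, without Control 18h library 3, to 376. Of the 30 members DESeq2 called Stat3 and Tfcp2l1 lower at 20h than at 18h. Over all 18992 genes it called 1009, of which 391 were lower, so its background was also higher than that of edgeR. Stat3 measured 66.4, 92.8 and 62.4 CPM at 18h, 27.1, 46.9 and 27.2 CPM at 20h and 51.4, 75.9 and 45.1 CPM at 22h. Its adjusted p for 20h over 18h was 0.107 by edgeR and 0.0168 by DESeq2. Each time stands in its own table, so time and table cannot be told apart.

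**Figure D3:**
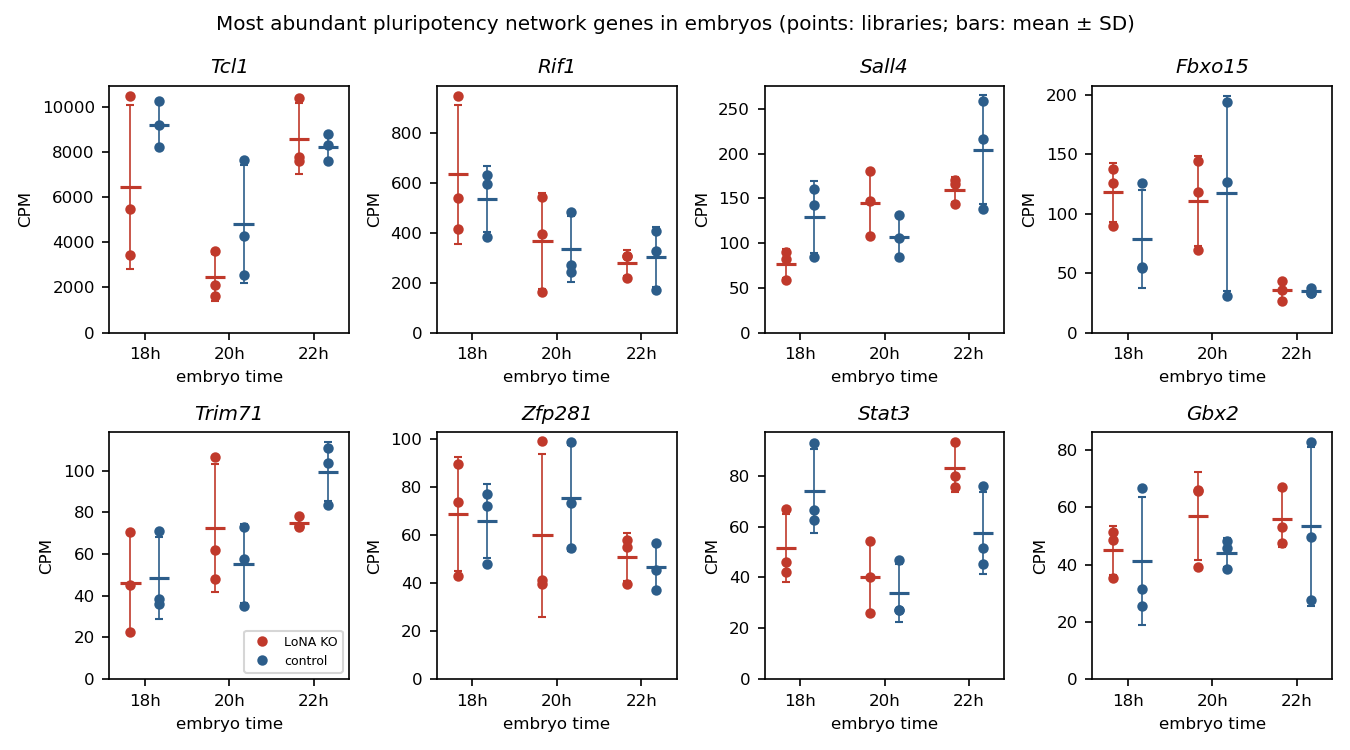
CPM of the 8 most abundant members in LoNA KO (red) and control (blue) embryos at 18h, 20h and 22h, on a scale common to these times, with points for libraries and bars for mean ± SD (n = 3). KO and control libraries overlap in each gene and time shown except Trim71 at 22h, where KO libraries lie between 72.8 and 78.3 CPM and control libraries between 83.6 and 111.1 CPM.

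LoNA KO left no member past the threshold at any embryo time. At 18h, 27 members could be tested, at 20h 22, at 22h 21 and at 24h 14, and edgeR called 0 in each, with 0, 1, 0 and 1 members at an unadjusted p under 0.05. The background was as low, at 0.00649%, 0.0138%, 0.00656% and 0.0% of all genes tested by adjusted p, and 5.14%, 3.66%, 3.15% and 5.16% by unadjusted p. DESeq2 also called 0 members at 18h, 20h and 22h. The members' median log2 change was -0.07 at 18h, -0.04 at 20h, 0.08 at 22h and -0.44 at 24h, against -0.01, -0.03, 0.00 and 0.02 for all genes. Variation between libraries was wide, with coefficients of 70.7%, 77.5%, 55.5% and 157.9%, so not passing does not show an unchanged level. The members' median moved with single libraries. At 18h it lay between -0.55 and -0.13 with one library left out, and was lowest without KO library 1. At 24h it lay between -6.40 and -0.33, and was lowest without KO library 2. The limits were -0.12 and 0.12 at 20h, where the sign changed, and 0.04 and 0.15 at 22h. Without a filter on low counts the median was -0.25 at 18h and -1.19 at 24h.

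At 18h the 5 members with the smallest p were Sall4, Tfcp2l1, Fbxo15, Myc and Zscan10. Sall4 measured 90.4, 60.1 and 82.6 CPM in KO, against 158.3, 139.6 and 83.4 CPM in control (log2 change -0.71 ± 0.33, adjusted p 0.969), with the KO libraries all under 91 CPM and 1 control library among them in size. Tfcp2l1 measured 8.28, 11.8 and 9.21 CPM in KO, against 16.3, 19.4 and 15.6 CPM in control, so its groups did not overlap, but the adjusted p was 0.999. Myc and Zscan10 were low: Myc had 2.08, 0 and 0.182 CPM in KO, against 4.58, 3.74 and 3.27 CPM in control, and Zscan10 had 3.37, 0 and 0.547 CPM in KO, against 4.03, 5.52 and 6.55 CPM in control. Fbxo15 measured 125.9, 91.3 and 139.0 CPM in KO, against 54.1, 53.1 and 125.1 CPM in control. Groups did not overlap for 4 members lower in KO (Tfcp2l1, Myc, Zscan10 and Mycn) and 1 higher (Prdm14), of 27, where 7.04% of all genes were lower and 5.79% higher without overlap.

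At 20h the smallest p belonged to Tcl1, at 3480, 1524 and 2053 CPM in KO, against 2442, 7752 and 4307 CPM in control (log2 change -1.04 ± 0.46, unadjusted p 0.0443, adjusted p 0.998). The groups overlapped, and control library 2 alone was far above the rest. Dppa5a, an RNA-binding protein of the early embryo with many retrocopies in the genome, measured 39.9, 55.6 and 98.4 CPM in KO, against 55.6, 27.8 and 29.9 CPM in control. Tfcp2l1 measured 3.85, 13.0 and 15.9 CPM in KO, against 2.51, 3.62 and 9.39 CPM in control, a log2 change of 1.08 ± 0.79 where that at 18h was -0.81 ± 0.44. Sall4 measured 141.2, 102.8 and 176.5 CPM in KO, against 101.7, 85.2 and 133.4 CPM in control. Tbx3, at 3.41, 3.17 and 6.62 CPM in KO, against 0.418, 1.63 and 2.71 CPM in control, was the 1 member of 22 whose groups did not overlap, where 4.65% of all genes were higher and 5.22% lower without overlap.

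At 22h Stat3 and Trim71 came first. Stat3 measured 96.0, 81.2 and 78.6 CPM in KO, against 53.2, 77.6 and 47.0 CPM in control (log2 change 0.53 ± 0.26, adjusted p 1), and Trim71 75.7, 74.0 and 81.3 CPM in KO, against 115.0, 85.5 and 108.4 CPM in control (log2 change -0.42 ± 0.23, adjusted p 1). On the scale common to the 3 times, 1 KO library of Stat3 (75.7 CPM) fell just under 1 control library (75.9 CPM). On the scale of 22h alone Stat3 and Trim71 were the 2 of 21 members whose groups did not overlap, where 4.73% of all genes were higher and 4.5% lower without overlap. Sall4 measured 147.6, 168.3 and 176.7 CPM in KO, against 267.5, 141.3 and 225.1 CPM in control. Lin28a measured 44.1, 26.8 and 26.2 CPM in KO, against 23.9, 28.2 and 23.2 CPM in control, and Klf5, a Krüppel-like factor, 1.40, 1.61 and 0.712 CPM in KO, against 0.128, 0.535 and 0.869 CPM in control. A test of the difference in KO effect between times covered 30 members. For 20h minus 18h, 22h minus 18h and 22h minus 20h, 0 members passed by edgeR, as did 0.0% of 18992 genes, and 4, 2 and 2 had an unadjusted p under 0.05, against 7.26%, 5.48% and 6.52% of genes. DESeq2 called 0 members as well. The difference of 20h minus 18h was 1.98 ± 0.77 for Tfcp2l1 (unadjusted p 0.0181, adjusted p 0.625) and 1.18 ± 0.43 for Sall4 (unadjusted p 0.0124, adjusted p 0.607).

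At 24h the 2 libraries of a group often differed widely. Trim71 had 2 and 9 counts in KO, against 1605 and 559 counts in control (log2 change -7.59 ± 2.70, unadjusted p 0.0269, adjusted p 0.826), and the groups did not overlap. DESeq2 called it, with an adjusted p of 0.000606, the 1 member of 14 called there. Over all 7425 genes DESeq2 called 411, of which 256 were lower. Lin28a had 13 and 216 counts in KO, against 1 and 0 counts in control, and Gbx2 had 329 and 126 counts in KO, against 2 and 9 counts in control. Sall4 had 97 and 629 counts in KO, against 1188 and 1430 counts in control, and Tcl1 measured 838.9 and 1357 CPM in KO, against 1678 and 1579 CPM in control. Groups did not overlap for 4 members lower (Trim71, Tcl1, Sall4 and Zfp281) and 2 higher (Lin28a and Gbx2) of 14, where 17.3% and 16.0% of all genes did not.

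A set of members marked 1 control library apart from the other. Pou5f1 had 0 counts in both KO libraries, against 278 and 1 counts in control libraries 1 and 2. Sox2 had 179 and 1 counts in KO, against 696 and 0 counts in control, and Mycn had 1 and 0 counts in KO, against 377 and 0 counts in control. Klf2, L1td1 and Lifr followed that pattern, with no counts in KO, against 177 and 1, 213 and 1, and 148 and 0 counts in control. Lin28b had 1 and 992 counts in KO, against 1 and 1759 counts in control, so here the first library of each group lacked the gene. The 13 members not listed at 24h include Esrrb and Tfcp2l1, which were above 2 CPM in each library of the earlier times.

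The chromatin of the same stage was read from called regions with 1 column per condition, so differences have no replicate check and no test. Regions are given as the peak tables give them on mm10, with 95% intervals from exact binomial (Clopper-Pearson) limits on the reads of both columns, which cover counting error only, as reads made by PCR are not independent molecules. H3K4me3, a mark of promoters, was present within 2 kb of the start of 35 of 37 members, all but Esrrb and Trim71. Of 19983 protein-coding genes 72.6% had it. Within 5 kb Esrrb (chr12:86365530-86366025) and Trim71 (chr9:114560985-114561490) had a region too. The 35 include genes with few or no embryo counts such as Nanog, Nodal, Fgf4, Nr0b1, Lefty1 and Tdgf1. The region covered the start itself in 24 of the 35. For Fgf4 the start used lies 14019 bases from that of RefSeq, and the region (chr7:144846161-144846594) lies near the former without covering it. With RefSeq starts, chosen after seeing the data, no member lost its H3K4me3 call. A region of Pou5f1 (chr17:35505383-35507141) measured 25.7 RPM in KO and 30.9 RPM in control, where RPM is the reads in the region scaled to all reads of the column, a log2 ratio of -0.27 (95% interval -0.37 to -0.16). The region at Nanog (chr6:122707185-122709090) measured 21.2 RPM in KO and 25.3 RPM in control, a log2 ratio of -0.25 (-0.36 to -0.14), and that at Tfcp2l1 (chr1:118627631-118628491) measured 12.5 RPM in KO and 12.6 RPM in control, a log2 ratio of -0.01 (-0.16 to 0.14). Of 57 regions, 51 had a lower value in KO, as had 11915 of 15648 regions at protein-coding genes, and their median log2 ratio was -0.17. This lay near the median of -0.12 over all regions within 2 kb of protein-coding genes and of -0.13 over the table. No region of a member passed 2-fold or 1.5-fold, where 0.0678% and 2.81% of all regions were lower and 0.0103% and 0.555% higher by that much.

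Summed over the regions of a promoter, log2 ratios ran from -0.37 at L1td1, with 20.0 RPM in KO and 25.8 RPM in control, to 0.36 at Lifr, with 10.7 RPM in KO and 8.35 RPM in control. Only Lifr, Lin28b and Lin28a had a higher sum in KO. Zfp42 and Klf5 followed L1td1 at the low end, with -0.32 and -0.30. The regions covered a median of 1546 bases of a member's promoter, against 1360 bases for all genes with one.

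**Figure D4:**
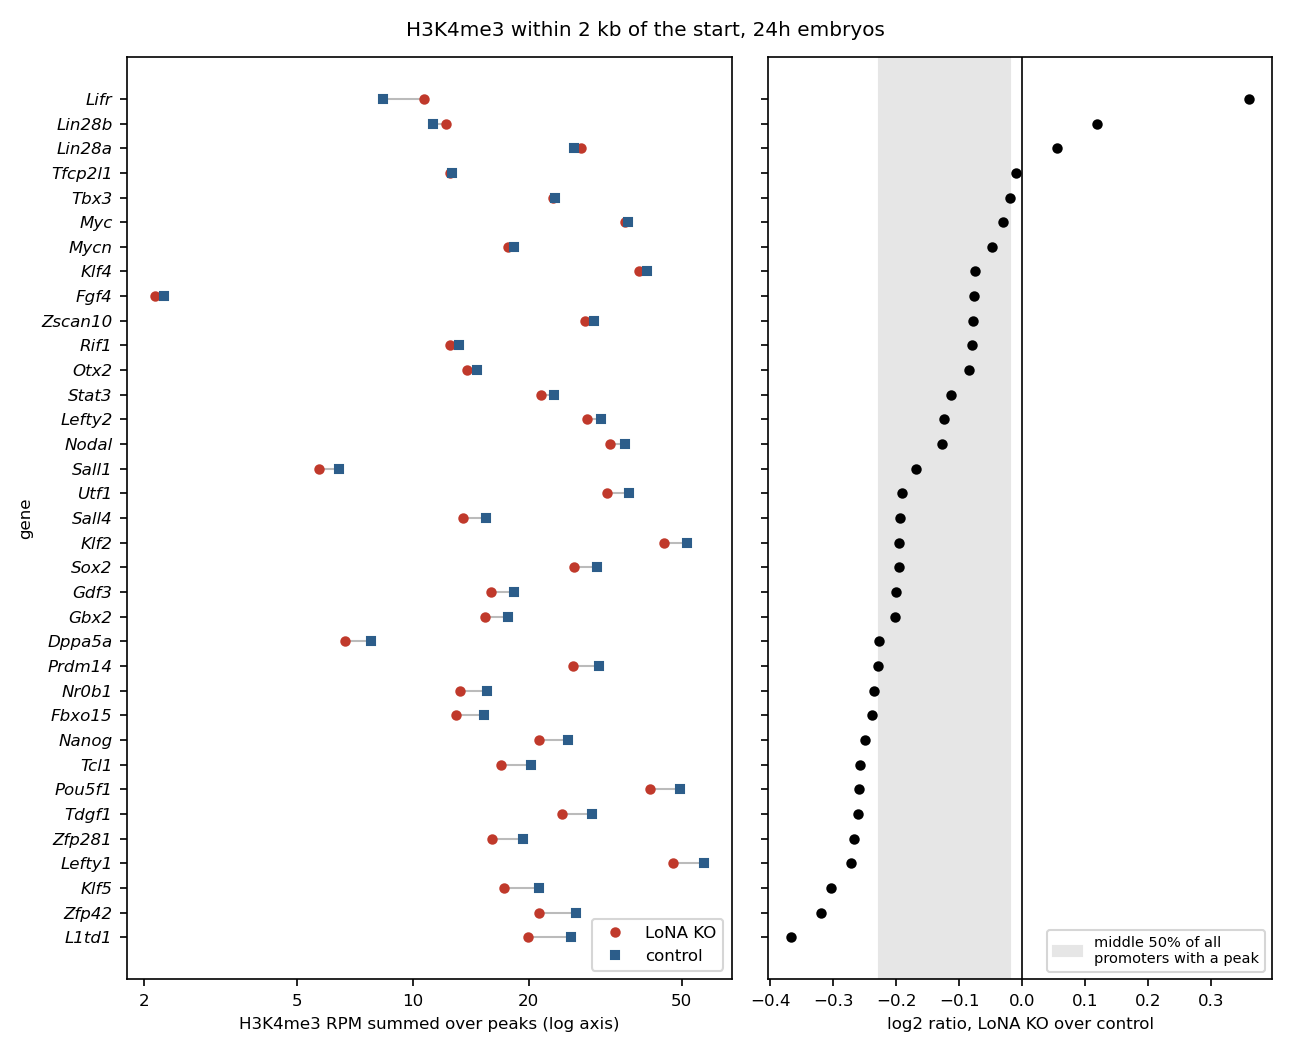
H3K4me3 in 24h embryos at 35 member promoters, as RPM summed over regions in LoNA KO (red circles) and control (blue squares) on a log axis, and as the log2 ratio of KO over control, with the middle 50% of all promoters shaded from -0.23 to -0.02. Ratios run from -0.37 at L1td1 to 0.36 at Lifr, and 32 of 35 lie below 0. Fgf4 and Lin28b are drawn at starts over 1 kb from those of RefSeq.

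The sample labels and the table name the next mark H3K27me3, while the series design text names H3K27ac, and the values are given under the name of the labels. H3K27me3, the repressive mark set by the Polycomb complex PRC2, was called within 2 kb of 3 of 37 members, where 17.8% of protein-coding genes had a region. They were Prdm14, Lin28b and Otx2, and in none did the region cover the start. At Prdm14 (chr1:13125051-13125894) it measured 4.19 RPM in KO and 4.23 RPM in control, a log2 ratio of -0.02 (-0.30 to 0.27), and at Otx2 (chr14:48668900-48669252) 3.03 RPM in KO and 2.92 RPM in control, a log2 ratio of 0.05 (-0.29 to 0.40). At Lin28b (chr10:45486425-45486902) it measured 1.67 RPM in KO and 1.42 RPM in control, a log2 ratio of 0.24 (-0.24 to 0.73). Each interval included 0. The H3K27me3 regions of Prdm14, Otx2 and Lin28b lay where an H3K4me3 region was also called.

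AcNPM1 in LoNA KO and control embryos was called within 2 kb of 0 of 37 members, where 15.8% of protein-coding genes had a region. In the table of LoNA KO embryos with p300 inhibitor and LoNA KO embryos, Lin28b alone had one, where 18.3% of genes did (chr10:45486415-45487076). It measured 1.88 RPM from 71 reads with the inhibitor and 2.70 RPM from 163 reads without it, a log2 ratio of -0.53 (-0.949 to -0.115), which did not reach 1.5-fold (4.73% of all regions fell by that much). It lay over the H3K27me3 region just upstream of the start. The start of Lin28b in the tables lies 16194 bases from that of RefSeq, and with RefSeq starts Lin28b had no AcNPM1 or H3K27me3 region within 2 kb. Beyond 2 kb, Tfcp2l1 had an AcNPM1 region within 5 kb (chr1:118622860-118623111, 1.24 RPM in KO and 1.12 RPM in control, log2 ratio 0.15, -0.44 to 0.76), where an H3K27me3 region was also called. Gbx2 had one within 5 kb in the inhibitor table (chr1:89933939-89934265), with 2.70 RPM from 102 reads with the inhibitor and 1.71 RPM from 103 reads without it, a log2 ratio of 0.66 (0.25 to 1.07). It was past 1.5-fold higher, as were 2.38% of all regions. Esrrb had regions when all its RefSeq starts, chosen after seeing the data, were used. The start used above (chr12:86361117) is also a RefSeq start, and no region was called within 2 kb of it. Esrrb held the regions below inside the gene (chr12:86361117-86521628), near another RefSeq start. Its AcNPM1 region (chr12:86421091-86421930) measured 9.97 RPM from 601 reads in KO and 7.98 RPM from 256 reads in control, a log2 ratio of 0.32 (0.11 to 0.54), where the median over all AcNPM1 regions of that table was 0.14. In the inhibitor table the same region measured 9.97 RPM with the inhibitor and 9.97 RPM without it, a log2 ratio of 0.00 (-0.19 to 0.19). Its H3K27me3 region (chr12:86421305-86422670) measured 11.5 RPM in KO and 12.1 RPM in control, a log2 ratio of -0.08 (-0.25 to 0.09), and its H3K4me3 region there (chr12:86421326-86422820) 11.7 RPM in KO and 14.7 RPM in control, a log2 ratio of -0.33 (-0.48 to -0.18).

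**Figure D5:**
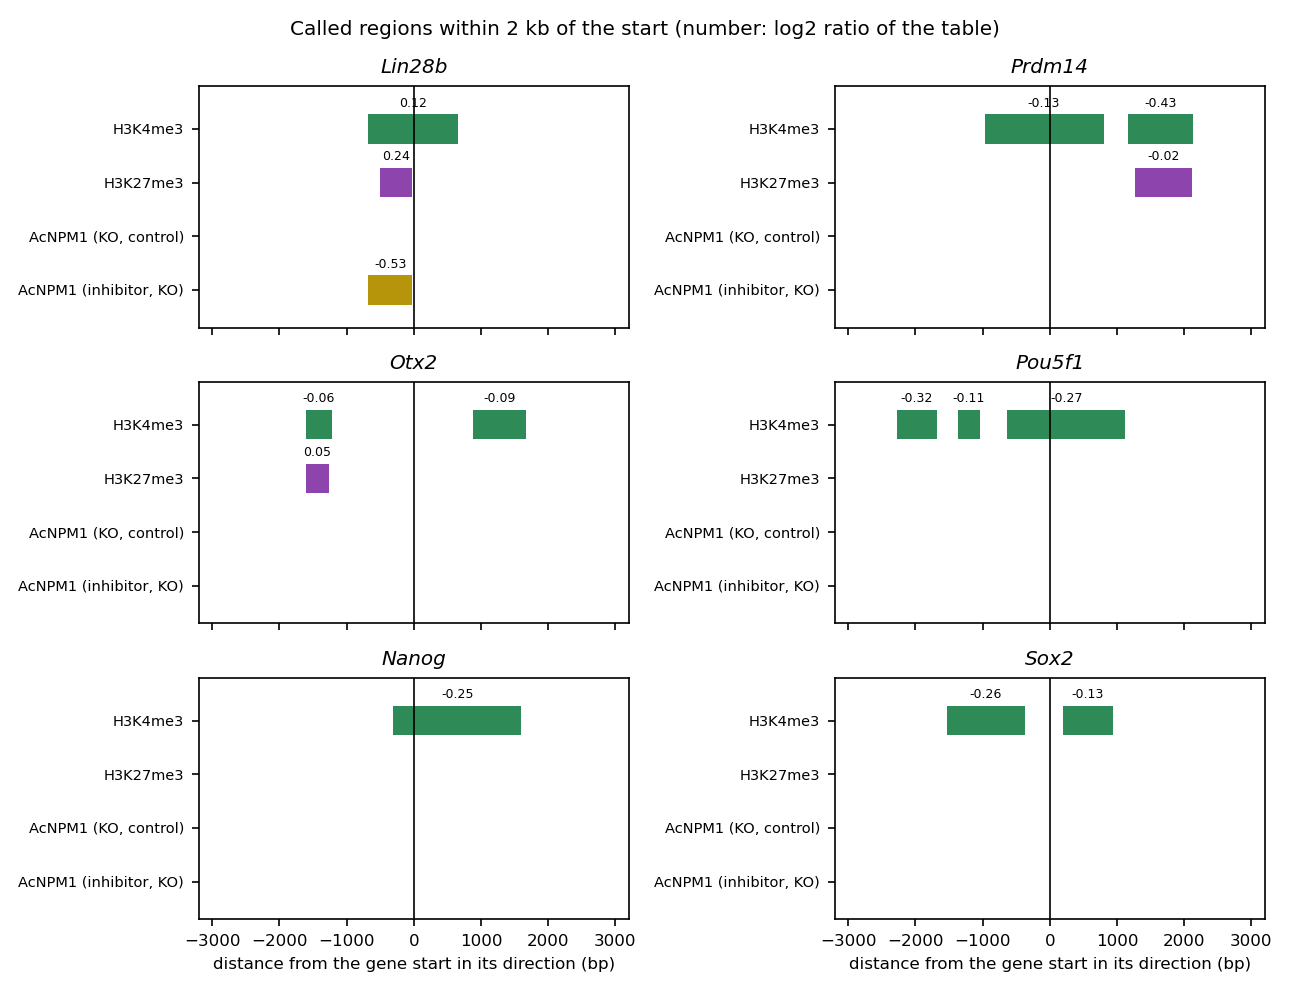
Called regions within 2 kb of the start of 6 members in 24h embryos, drawn by distance from the start in the direction of the gene, with 1 row per peak table and the log2 ratio (KO over control, or inhibitor in KO over KO) above each bar. H3K4me3 lies at all 6, H3K27me3 at Lin28b, Prdm14 and Otx2, and AcNPM1 at Lin28b alone, in the inhibitor table.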

How the data were processed

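RNA was measured in 38 samples and chromatin in 13. The deposited RNA tables hold raw counts per gene with Ensembl IDs on mm10, a mean signal (baseMean) and a fold change, as a ratio or, at 24h, as log2, which the authors computed and which are not used here. The submitters' processing notes name HISAT2 2.1.0, Bowtie2 2.2.3 and HTSeq 0.6.0 for RNA, and Bowtie2 2.1.0, MACS2 2.1.1 and bcl2fastq 2.2 for chromatin. The deposited peak tables hold read counts, total reads as another quantity, RPM and the log2 ratio per region. The members and gene lists were chosen with earlier results of these data known.

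Columns were tied to groups by table and prefix, and each table has 1 column per condition for chromatin and fewer RNA columns than labelled samples except at 24h. Columns of the histone tables bear only initials, and which is KO was read from the direction of the ratio and the title. AcNPM1 has 1 column for 3 labelled samples. Counts were fitted over whole tables with edgeR 4.0.16 in R 4.3.3 (TMM, filterByExpr, quasi-likelihood test, Benjamini-Hochberg adjustment at 0.05). Simulated counts were put through the same fits first, and the share of set changes they recovered is not reported here. At 24h, columns correlating over 0.99 were summed. Times were compared in one fit of 18 libraries, and mESC with 22h embryos in another. Nothing says that replicates are separate cultures or embryos, so p-values measure the spread between these libraries, which may be technical. Alternatives were RLE factors, no filter, DESeq2 1.42.0, a fold limit, each library left out, windows of 1 and 5 kb and, chosen after seeing the data, RefSeq starts and a replicate block by column number. All 37 members may be named. Values per library are given for members past the threshold, or up to the 5 with the smallest p, in embryos, for the 10 largest falls and 5 largest rises in mESC, and for members with a promoter region. Other values per library in mESC, at 24h and by region were added after their values were seen. Genes of the lists are the 2 with the largest change each way, of which 1 is not reported here. Promoter sequences are from RefSeq (GRCm38.p6).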

Additional observations from a re-analysis of the deposited data

How the results depend on the processing

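Of the comparisons of counts, 54 results under other settings stayed within 1.5 times of the value given and 9 did not. At 24h DESeq2 called 1 member (Trim71, lower), and 8 columns taken as separate libraries gave 2 (Trim71 lower, Gbx2 higher). In mESC a log2 change of at least 1 left 19 of 35. DESeq2 called 2 members lower at 20h than at 18h. Without a filter on low counts 1 member passed for 22h over 20h. H3K27me3 within 1 kb was left at 1 member. AcNPM1 in KO and control was found at 1 member within 5 kb (Tfcp2l1) and at 1 with RefSeq starts (Esrrb, near a start inside the gene), and in the inhibitor table at 2 within 5 kb. The cause was not tested. With one library left out, the members called ranged from 0 to 2 for 22h over 20h, from 34 to 35 in mESC and from 26 to 31 for mESC over 22h embryos, and were 0 in the other comparisons. Over all genes DESeq2 called 64, 22, 5 and 411 genes at 18h, 20h, 22h and 24h and no filter 72, 15, 33 and 3, where the fits reported called 1, 2, 1 and 0, and 8 columns gave 823 at 24h. DESeq2 called 1009, 1510 and 979 genes for 20h over 18h, 22h over 20h and 22h over 18h, against 143, 558 and 300, and no filter 91 for the first of these. With one library left out, all genes called ran from 0 to 298, 36 to 635 and 0 to 376 for these, from 0 to 39 at 24h and from 6811 to 12007 for mESC over 22h embryos. DESeq2 called 63, 42 and 47 genes for the differences of KO effects, against 0. The median of all genes moved to -0.147 at 18h and -0.327 at 24h without a filter, and with RLE factors to -0.113 for 22h over 20h, -0.144 for 22h over 18h and 0.563 for mESC over 22h embryos. Reversals were of values that did not pass. Rif1 in mESC over 22h embryos was 0.055 with RLE factors, 0.027 without a filter and 0.055 with DESeq2, and ran from -0.321 to 0.154 with one library left out, where Lin28b ran from -0.367 to 0.048. Differences of KO effects ran from -6.628 to 0.869 (Utf1, 20h minus 18h), from -0.261 to 7.404 (Utf1, 22h minus 20h) and from -5.207 to 2.588 (Prdm14, 22h minus 18h). Leaving out 1 library at 24h moved the median of all genes to between -1.909 and 0.846. The members' median at 24h ran from -6.403 to -0.333 with one library left out, against -0.443. Column names carry numbers that KO or KD and control share but that are not tied to labelled replicates, and a replicate block by these numbers was chosen after seeing the data (at 24h, summed libraries sharing a number were matched). Deviations of same-numbered libraries correlated between -0.127 and 0.114, so the numbers were not taken to pair libraries. Under the replicate block 0 members were called at each embryo time and 36 in mESC, where Mycn passed with an adjusted p of 0.0408, and 1, 2, 1, 0 and 12409 genes in all.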
